A study of Mus musculus with 24 samples.

Results

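The glandular kallikreins were followed through 24 single-colour microarrays of HC11 mammary epithelial cells. The set comprised 8 genes, Klk1, Klk1b5, Klk1b11, Klk1b21, Klk1b22, Klk1b24, Klk1b26 and Klk1b27, of the 20145 genes that could be named on the array. They were read by 9 of its 55681 probes, because Klk1b26 had a pair of them. The probes were A_51_P245414 for Klk1, A_55_P2002933 for Klk1b5, A_51_P110640 for Klk1b11, A_66_P136971 for Klk1b21, A_55_P2112986 for Klk1b22, A_66_P130035 for Klk1b24, A_55_P2025006 and A_55_P2001474 for Klk1b26 and A_51_P419656 for Klk1b27. The genes were chosen by their signal in these arrays: Klk1b26 and Klk1b5 changed when cells received siRNAs against mPINC1.0 and mPINC1.6 (siPINC1/6), so the values of siPINC1/6 against siNegative are given here as a description, with no test. The 6 other Klk1b genes that could be named, Klk1b1, Klk1b3, Klk1b4, Klk1b8, Klk1b9 and Klk1b16, were examined beside them.

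Glandular kallikreins are secreted serine proteases. Klk1, tissue kallikrein, cleaves kininogens to release kinins, small peptides that act through the bradykinin receptors and are destroyed by peptidases on the cell surface. In rodents the Klk1 gene has been copied many times, and the mouse Klk1b genes lie side by side with it in a cluster. They are best known from the submandibular salivary gland, where Klk1b9 and Klk1b22 bind epidermal growth factor, and Klk1b26 converts prorenin. Because the paralogues are closely related in sequence, a probe for one may also have bound transcripts of another, and this was not tested because the probe sequences were not used here.

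HC11 is a line derived from the mammary gland of a mid-pregnant Balb/c mouse, and it makes milk proteins when given the lactogenic hormones (LH) hydrocortisone, insulin and prolactin. The study asked how mPINC, a noncoding RNA of the mammary gland, acts on this differentiation. The siRNA arrays formed 6 groups, given a negative control siRNA (siNegative), siRNAs to the major splice forms mPINC1.0 and mPINC1.6 (siPINC1/6), or siRNAs to every splice form (siPINC), each without hormones (-LH, n = 2 arrays) and with them (+LH, n = 3). In 3 more groups, all with hormones and n = 3, cells were transduced in bulk with a lentivirus for GFP (LeGO-GFP), for the major mPINC splice forms (LeGO-1/6) or for an mPINC form that lacks its most conserved regions (LeGO-DCR). All arrays thus came from 1 cell line, no lentiviral group was left without hormones, and the time in hormones is not given in the sources used here for these arrays. In such bulk samples, fewer expressing cells and less RNA per cell cannot be told apart. In the paper's culture methods insulin was already in the growth and priming media, and prolactin and hydrocortisone were then added to differentiate the cells. The growth medium also held epidermal growth factor and calf serum, whereas the later media held stripped horse serum. The medium of the -LH arrays is not stated, so the -LH and +LH arrays may differ in medium as well as in added hormones.

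The mPINC probe checked the labels. Its log2 normalized signal was 13.34 to 13.50 in the 3 LeGO-1/6 arrays against 5.92 to 6.38 in LeGO-GFP, a log2 fold change of 7.37 ± 0.14 (SE; limma adjusted p = 1.04e-07). In LeGO-DCR it read 5.93 to 6.17, the level of LeGO-GFP, so the probe gives no measure of how much of the deletion mutant was made. Without hormones the signal was 7.41 and 7.48 in siNegative, 6.27 and 6.39 in siPINC1/6 and 6.16 and 6.39 in siPINC. The siPINC difference there was -1.17 and did not pass adjustment (adjusted p = 0.147). With hormones siNegative itself read only 4.72 to 4.96, siPINC1/6 4.83 to 5.25 and siPINC 4.15 to 4.76. The probe was well above background there on only 2 of 3 siNegative, 2 of 3 siPINC1/6 and 1 of 3 siPINC arrays. It read no lower in siPINC1/6, and the siPINC difference of -0.50 did not pass (limma adjusted p = 0.428). So near background, it is a poor measure of knockdown in the groups given hormones. The paper reports knockdown of mPINC by qPCR after siRNA transfection.

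Between 24012 and 35374 probes per array were well above background, the scanner software's flag for a spot brighter than its surroundings. The highest count came from LeGO-1/6 replicate 1, which also had the most outlier spots, 644 against 146 to 280 elsewhere. The arrays lay on 3 slides, and slide 1 held all -LH arrays with the first siNegative +LH and the first LeGO-GFP array. The epithelial markers Krt8, Krt18, Epcam, Cdh1 and Elf5 were well above background on 24 of 24 arrays, as was the milk protein Ltf. Csn2, beta-casein, was so on 15 arrays and in none of the -LH or LeGO-1/6 arrays. Of the salivary gland markers, Bpifa2 was never well above background, Dcpp1, Dcpp2 and Smgc were so on 2, 3 and 3 arrays, Amy1 on 20, and Muc19 had no probe.

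The promoters of the family show how alike these genes are. RefSeq sequences (GRCm38.p6) were found for all 8 members, which lie on the plus strand of chromosome 7. In the order of the cluster the 14 genes run Klk1b8, Klk1b1, Klk1b9, Klk1b11, Klk1b26, Klk1b27, Klk1b21, Klk1b22, Klk1b16, Klk1b24, Klk1b3, Klk1b4, Klk1b5 and Klk1. The last 120 bases before the annotated start are printed for Klk1b5 and Klk1b26, whose change chose the set, for Klk1b24 and Klk1b21, which share most sequence but not their signal pattern, and for Klk1, the founding member. Capitals mark TTTAAA.
Klk1b5 (chr7:44216354-44216473): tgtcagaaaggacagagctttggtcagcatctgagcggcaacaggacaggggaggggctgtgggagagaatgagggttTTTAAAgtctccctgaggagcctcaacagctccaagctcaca
Klk1b26 (chr7:44012558-44012677): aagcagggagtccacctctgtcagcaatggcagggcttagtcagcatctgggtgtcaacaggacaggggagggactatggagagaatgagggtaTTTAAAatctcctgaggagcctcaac
Klk1b24 (chr7:44188116-44188235): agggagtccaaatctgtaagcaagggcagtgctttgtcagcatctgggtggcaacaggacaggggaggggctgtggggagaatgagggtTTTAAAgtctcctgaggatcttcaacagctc
Klk1b21 (chr7:44102172-44102291): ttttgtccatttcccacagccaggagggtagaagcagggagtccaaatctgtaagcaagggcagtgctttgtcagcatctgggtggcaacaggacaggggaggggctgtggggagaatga
Klk1 (chr7:44225240-44225359): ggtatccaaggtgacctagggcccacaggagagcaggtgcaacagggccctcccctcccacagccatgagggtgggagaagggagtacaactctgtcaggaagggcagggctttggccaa

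Over the 250 bases before the start, searched on both strands, TTTAAA was present in 12 of the 14 family promoters, against 12.1% of the 27025 promoters in the table. In the members it lay at -42 to -37 in Klk1b5, -40 to -35 in Klk1b11 and Klk1b22, -31 to -26 in Klk1b24, -26 to -21 in Klk1b26 and -17 to -12 in Klk1b27, counted back from the start. The 2 promoters without it were those of Klk1 and Klk1b21, and in Klk1b21 the same letters stood just past the annotated start, at positions 5 to 10. The end of the printed Klk1 sequence resembles a stretch of Klk1b5 that lies well before TTTAAA. Read by eye, the matching position in Klk1 would fall past its annotated start, outside the 250 bases searched. The promoter windows reach some way past the start, and there TTTAAA was found in Klk1b21 alone, not in Klk1. TATAAA occurred in 0 family promoters and in 13% of all promoters. TTCNNNGAA, the core letters of a STAT site, occurred in 0 of the 14 and in 7.18% of all. AGAACA, the half-site bound by steroid receptors, occurred in 2 of the 14, Klk1b24 at -237 to -232 and Klk1b3 at -72 to -67, and in 16.2% of all promoters. TTTAAA reads the same on both strands, and the motifs do not overlap each other. These matches are letters in the sequence and were not tested as binding sites.

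Aligned over whole RefSeq promoter windows, which reach past the start, the member promoters were 81.2% to 98.1% identical over the aligned stretch, with a median of 85.3% over 28 pairs. The closest pair was Klk1b21 and Klk1b24, identical at 259 of 264 aligned bases. Klk1b27 followed with 94.5% identity to Klk1b21, and Klk1 was the most distant, at 81.2% to 85.4%.

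Across the 9 groups Klk1b5 had 3 levels. On the log2 scale the 2 siNegative -LH arrays read 3.81 and 3.72, siPINC1/6 -LH 4.06 and 3.85, and siPINC -LH 3.39 and 4.09, and none of the 6 was well above background. With hormones siNegative read 8.69, 8.72 and 8.87, siPINC 8.40, 8.78 and 8.36, LeGO-GFP 8.51, 8.65 and 8.98, and LeGO-DCR 8.33 to 9.10, with its middle array close to the higher one. These 4 groups overlapped one another and all 12 arrays stood far above the arrays without hormones. The siPINC1/6 +LH arrays lay apart from both sets at 6.88, 6.78 and 6.79. LeGO-1/6, although given hormones, read 4.22, 4.18 and 4.15, just above the highest array without hormones.

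Klk1b26 had the same low and intermediate groups and a split among the high ones. The probe with the higher mean signal read 3.97 and 2.10 in siNegative -LH, 2.47 and 2.81 in siPINC1/6 -LH and 1.87 and 2.25 in siPINC -LH. LeGO-1/6 read 1.97, 2.09 and 2.09, within that range, and no array of these 4 groups was well above background. The siPINC1/6 +LH arrays followed at 5.51, 5.44 and 5.12. Next came siPINC +LH at 7.19, 7.36 and 6.78 and siNegative +LH at 7.31, 7.51 and 7.47, which overlapped. The lentiviral controls were highest, with LeGO-GFP at 8.39, 8.49 and 8.76 and LeGO-DCR at 8.07, 8.71 and 8.94, overlapping each other but no siRNA array. The second Klk1b26 probe gave the same order of its group means from siPINC1/6 +LH upward (2.93, 4.67, 4.72, 6.85 and 6.86), except that LeGO-1/6, at 3.04, lay above siPINC1/6 +LH.

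Klk1, the kinin-releasing enzyme, read between 1.88 and 2.85 on the 6 arrays without hormones and 2.38, 3.43 and 2.64 in LeGO-1/6, never well above background. It read 7.16, 7.23 and 7.29 in siNegative +LH, 6.88, 7.46 and 6.73 in siPINC +LH, 6.99, 6.96 and 7.30 in LeGO-GFP and 6.57, 7.37 and 7.31 in LeGO-DCR. The siPINC1/6 +LH arrays were again between, at 5.74, 5.44 and 5.47. Klk1b24 repeated this order, with 3.16 to 4.36 without hormones, 3.87 to 4.27 in LeGO-1/6, 5.24 to 5.71 in siPINC1/6 +LH and 6.28 to 7.42 in the other 4 groups. In Klk1b24 the siPINC +LH arrays (6.28 to 6.61) lay below those of siNegative +LH (6.75 to 6.92).

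Klk1b22, an epidermal growth factor-binding kallikrein, and Klk1b11 followed the same outline. Klk1b22 read 1.88 to 4.34 without hormones, 4.11, 2.57 and 2.87 in LeGO-1/6 and 3.93 to 4.80 in siPINC1/6 +LH. It read 5.72 to 5.90 in siNegative +LH, 5.78 to 6.10 in siPINC +LH and 6.30 to 6.93 in the pair of lentiviral control groups. Klk1b11 was well above background on 8 of 24 arrays, namely the 6 of LeGO-GFP (5.36 to 5.50) and LeGO-DCR (4.96 to 5.95) and 2 of siNegative +LH. Its siPINC1/6 +LH arrays (2.15 to 2.82) overlapped those of LeGO-1/6 (1.95 to 2.42).

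Klk1b21 and Klk1b27 stood outside this pattern. Klk1b21 was well above background on all 24 arrays, and its group means ran only from 6.29 (siNegative -LH) to 7.36 (LeGO-DCR +LH). Its siRNA arrays lay between 6.14 and 6.76 with or without hormones, and its lentiviral arrays, LeGO-1/6 included, between 6.85 and 7.51. Klk1b27 was well above background on 0 of 24 arrays. Its highest group means were in LeGO-GFP and LeGO-DCR, whose arrays read 2.93 to 4.04, and 1 siPINC1/6 +LH array read 3.65. Over the 9 group means, which share arrays and scaling, the Pearson correlation with Klk1b5 was 0.998 for Klk1, 0.992 for Klk1b24, 0.979 for Klk1b26, 0.916 for Klk1b22, 0.909 for Klk1b11, 0.666 for Klk1b27 and 0.419 for Klk1b21. So the pair with the most similar promoters, Klk1b21 and Klk1b24, correlated at only 0.492.

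**Figure D1:**
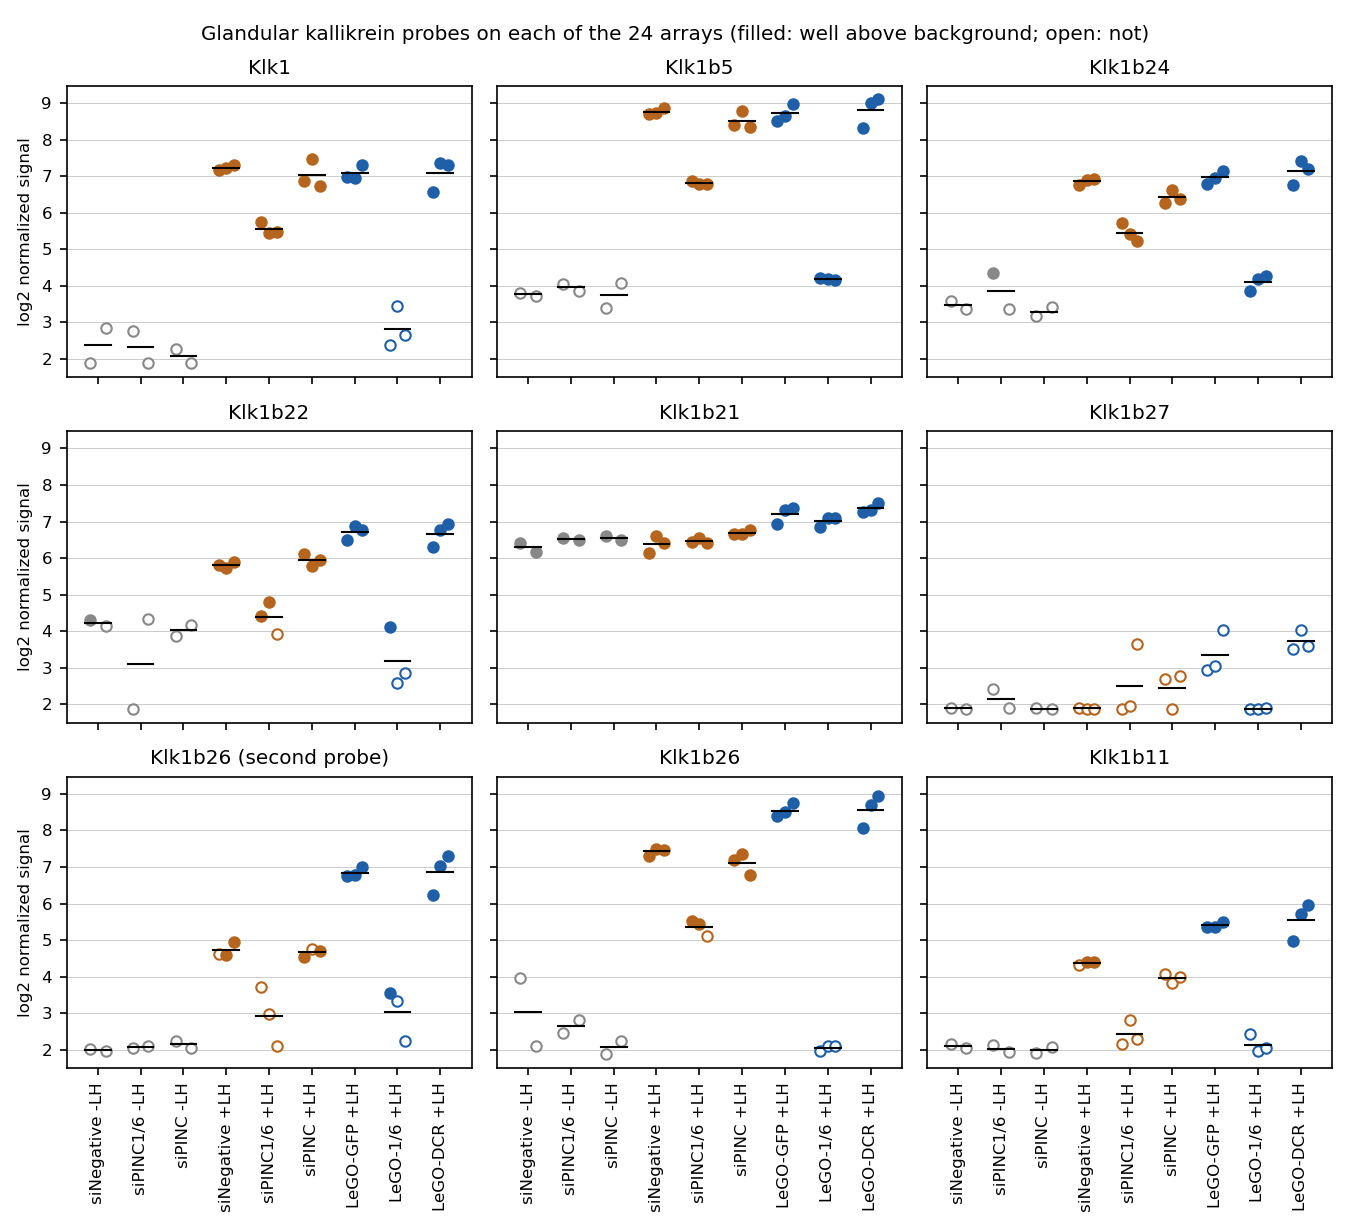
Log2 normalized signal (vertical axis) of each glandular kallikrein probe on the 24 arrays, by group; points are arrays, short lines group means, filled points arrays where the probe was well above background. Klk1b5 sits at 3.39 to 4.22 in the arrays without hormones and in LeGO-1/6, at 6.78 to 6.88 in siPINC1/6 +LH and at 8.33 to 9.10 in the other 4 groups, whereas Klk1b21 stays between 6.14 and 7.51.

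Overexpression of the major mPINC forms was compared with the GFP vector in cells that all received hormones. The siPINC1/6 contrast named in choosing the genes holds none of these arrays, although earlier results of the whole series were known. Of the 9 member probes, 8 were lower in LeGO-1/6 at an adjusted p under 0.05 in limma, and 0 were higher. The comparison was broad, with 30.3% of all 55681 probes called and 15.8% called lower. The median log2 fold change was -3.53 over the member probes and -0.01 over all probes. With probes that were below background in LeGO-1/6 set to their bound, and Klk1b27 left out, the members' median was -3.61.

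Klk1b26 fell by 6.49 ± 0.22 on the log2 scale (SE, n = 3 arrays a group; limma adjusted p = 9.18e-07). Because it was below background in LeGO-1/6, this is stated as at least 35.5-fold lower, a bound set on this signal scale by the dimmest signal well above background on each array. The bound was 25.8-fold without LeGO-1/6 replicate 1, whose dimmest such signal was 2.47 against 3.77 and 3.95 on the other arrays of the group. Klk1b5 fell by 4.53 ± 0.22 (adjusted p = 4.43e-06), or 23.2-fold, with all 3 LeGO-1/6 arrays well above background. Klk1 fell by 4.27 ± 0.32 (adjusted p = 4.02e-05), at least 12.9-fold. All 3 LeGO-1/6 arrays lay below all 3 LeGO-GFP arrays for each of these genes, and the share of all probes separated in this way was not computed. The other falls were 3.53 ± 0.39 for Klk1b22, 3.27 ± 0.25 for Klk1b11 (at least 4.03-fold) and 2.86 ± 0.19 for Klk1b24 (7.25-fold), and the second Klk1b26 probe fell by 3.81 ± 0.39. Klk1b22 and that second probe were well above background on 1 of 3 LeGO-1/6 arrays. Klk1b27 also passed (-1.47 ± 0.29, adjusted p = 0.00618) but was below background in both groups, so no fold is given, and it missed the threshold with the methods' t-test (adjusted p = 0.0525).

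Klk1b21 differed by -0.18 ± 0.14 (95% interval -0.50 to 0.14, adjusted p = 0.424) and was the 1 member probe not called, although a fit of the 24 arrays with the slide as a term called it (-0.31, adjusted p = 0.0239). The sizes depended on how background was handled. With normexp correction of the raw spot signals the Klk1b26 difference was -2.61, that of Klk1b5 -2.59 and that of Klk1 -1.57, all in the same direction and all called. With the deposited log2 values that of Klk1b26 was -4.07. Both Klk1b26 values are smaller than its bound, so the bounds given here hold only for the signal as the scanner software processed it. Without LeGO-1/6 replicate 1, the array that stood apart, Klk1b26 differed by -6.45, Klk1b5 by -4.55 and Klk1 by -4.05. Within slide 3, which leaves out LeGO-GFP replicate 1, they differed by -6.57, -4.64 and -4.31.

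The deletion mutant was set against the GFP vector in the same fit. Of the 9 member probes 0 were called between LeGO-DCR and LeGO-GFP, and 0 had an unadjusted p under 0.05. Over all probes 0.0736% were called (41), and 2519 had an unadjusted p under 0.05. The members' differences ran from -0.04 to 0.38. Klk1b5 differed by 0.09 (95% interval -0.41 to 0.60), Klk1b26 by 0.03 (-0.48 to 0.54) and Klk1 by 0.00 (-0.75 to 0.75). These 3 intervals leave room for changes up to their limits in either direction, and none reaches the LeGO-1/6 difference of the same gene.

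LeGO-1/6 was also compared directly with LeGO-DCR, with which it shares the viral transduction. Again 8 of 9 member probes were lower, where 29.7% of all probes were called and 15.1% were called lower. Klk1b26 was lower by at least 36.2-fold, Klk1b5 differed by -4.63 ± 0.22 (limma adjusted p = 3.99e-06) and Klk1 by -4.27 ± 0.32. These values share the LeGO-1/6 arrays with the comparison above and are not a second measurement of them. Klk1b21 differed by -0.34 (-0.67 to -0.02, adjusted p = 0.115), with groups that did not overlap. It was called in 5 of the alternative settings, including the one without LeGO-GFP replicate 1 (adjusted p = 0.0417).

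In the same LeGO-1/6 against LeGO-GFP contrast, 4 of 5 epithelial marker probes, 5 of 5 basal marker probes, 3 of 4 milk protein probes and 2 of 5 leukocyte marker probes were also lower. Of the adipocyte probes 1 of 2 was higher, of the salivary probes 1 of 5 was higher and 1 lower, and of the endothelial probes 0 of 2 were called. Over all probes 30.3% were called in this contrast, 15.8% lower. Elf5, a transcription factor of the secretory lineage, averaged 4.58 in LeGO-1/6 and 10.04 in LeGO-GFP, and Csn2 1.90 against 6.15. The summed basal level was 14 to 14.06 against 15.99 to 16.08, the summed epithelial level 14.92 to 15.03 against 15.18 to 15.19, and the summed level of the 5 salivary markers 6.91 to 7.15 against 6.64 to 6.9, all on the log2 scale. The summed leukocyte level was 11.26 to 11.39 against 11.68 to 12.04, without overlap. The summed adipocyte level was 3.71 to 4.27 against 3.52 to 4.12 and the endothelial level 5.64 to 6.18 against 6.18 to 6.57. Adipoq was well above background on 0 of 24 arrays, Cdh5 on 1 and Ptprc on 7, whereas Cd3e and 1 of 3 Itgam probes were so on all 24. The part of cell state or composition in the kallikrein values was not tested.

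**Figure D2:**
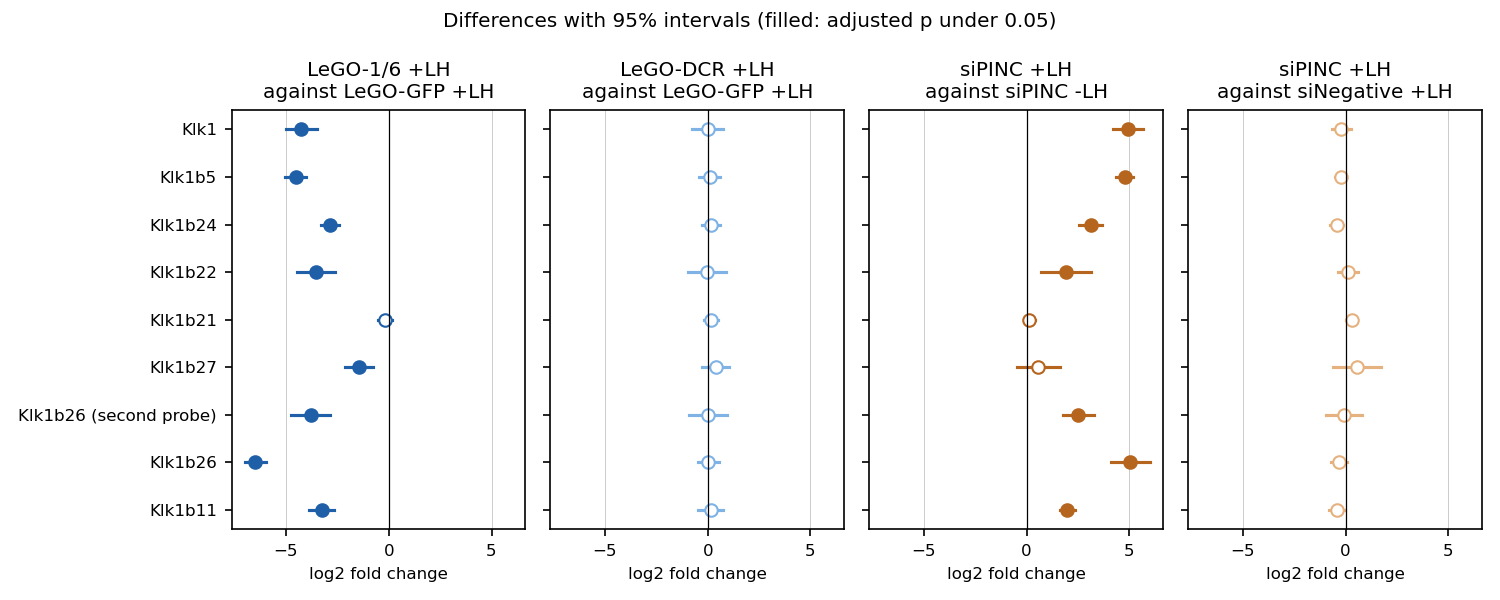
Log2 fold change with 95% interval (horizontal axis) of the 9 member probes in 4 comparisons, filled where the adjusted p was under 0.05. In LeGO-1/6 every probe lies left of 0, down to -6.49, and all but Klk1b21 are filled; in LeGO-DCR all lie between -0.04 and 0.38; with hormones in siPINC cells 7 of 9 lie right of 0 and are called, and between siPINC +LH and siNegative +LH 0 are called.

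The effect of the hormones was tested first in siPINC cells, whose arrays took no part in the siPINC1/6 contrast, although the siPINC1/6 and siNegative arrays entered the estimate of the spread. Of the 9 member probes 7 were higher with hormones, where 28% of all probes were called and 13.5% were called higher. The median log2 fold change was 2.52 for the members and 0.01 for all probes. With bounds in place of signals below background, and 2 probes left out, the members' median was 2.31.

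Klk1b5 rose by 4.77 ± 0.19 (SE, n = 3 against 2 arrays; limma adjusted p = 1.64e-08), or at least 21.3-fold over the background-limited level without hormones. Klk1 rose by 4.95 ± 0.33 (at least 7.56-fold), Klk1b26 by 5.05 ± 0.42 (at least 8.04-fold; second probe 2.52 ± 0.35, at least 1.48-fold) and Klk1b24 by 3.12 ± 0.25 (at least 4.96-fold). In all of these the 3 +LH arrays lay above the 2 -LH arrays, and the share of all probes separated in this way was not computed. Klk1b11 passed as well (1.97 ± 0.17) but was below background in both groups.

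Klk1b22 rose by 1.92 ± 0.54 (limma adjusted p = 0.0214; at least 3.58-fold), a call that was lost in several settings. The adjusted p was 0.121 and 0.0707 without siPINC -LH replicate 1 or 2, 0.0588 and 0.0501 without siPINC +LH replicate 1 or 3, and 0.182 with the slide as a term. Klk1b21 differed by 0.13 (95% interval -0.14 to 0.40) and Klk1b27 by 0.57 (-0.47 to 1.61), and neither passed. In siPINC cells the hormone arrays and the arrays without hormones lay on different slides, so those 5 arrays alone cannot tell hormone from slide. A further fit of the 24 arrays had the slide as a term, and its slide effect came from the siNegative +LH and LeGO-GFP groups that spanned slides. In it 6 of 9 member probes were called higher, and the share of all probes called in that fit was not computed. Klk1b5 rose there by 4.67, Klk1b26 by 4.87 and Klk1 by 4.86. The fit with normexp correction gave smaller rises, 2.46 for Klk1b5, 1.55 for Klk1b26 and 1.55 for Klk1, all still called and all smaller than the bounds above.

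The same comparison in siNegative cells shares its arrays with the contrast that chose the genes, and its values are given beside the others. There 6 of 9 member probes were higher, against 27.1% of all probes called and 13.5% called higher, with a members' median of 2.72, or 2.12 with bounds. Klk1b5 rose by 4.99 ± 0.19 (limma adjusted p = 9.87e-09; at least 23.4-fold), Klk1 by 4.86 ± 0.33 (at least 8.09-fold) and Klk1b24 by 3.38 ± 0.25 (at least 6.25-fold). Klk1b26 rose by 4.40 ± 0.42 (at least 9.31-fold). Its 2 -LH arrays differed most among the members, and the value was 5.33 without siNegative -LH replicate 1 and 3.46 without replicate 2. Klk1b22 differed by 1.59 and missed the threshold (adjusted p = 0.052), but it passed in 9 alternative settings. These were quantile normalization within the siRNA arrays (adjusted p = 0.0353), normexp correction (0.000857), the deposited log2 values (0.00808), bright probes alone (0.0245), the methods' t-test (0.00919), another prior (0.0369) and 1 fit of the 24 arrays (0.0274). The other two left out siPINC1/6 -LH replicate 1 or replicate 2 (0.000373 each).

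Slide 1 held both siNegative -LH arrays and 1 siNegative +LH array, so this rise could also be read within a slide. There Klk1b5 was higher by 4.93, Klk1 by 4.80, Klk1b26 by 4.28 and Klk1b24 by 3.27. The +LH side of this fit is 1 array, so sizes alone are given. These siNegative arrays were also controls of the contrast that chose the genes. With hormones, 4 of 5 epithelial marker probes were also higher in both siPINC and siNegative cells, where 28% and 27.1% of all probes were called. Of 5 basal probes 4 were lower in each, and 1 was higher in siNegative. Of 4 milk protein probes 2 were higher in each, of 5 leukocyte probes 1 was higher in each, of 2 endothelial probes 1 was lower in siPINC, and 0 of 2 adipocyte probes were called in either. Of the salivary marker probes 2 of 5 were higher in siPINC and 1 of 5 in siNegative, with a summed level of 6.95 to 7.29 against 5 to 5.27 in siPINC. The part of these shifts in the kallikrein values was not tested.

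Knockdown of every mPINC splice form was compared with the negative siRNA, using the same siNegative arrays as the contrast that chose the genes. Without hormones 0 of 9 member probes were called and 0 had an unadjusted p under 0.05, where 0% of all probes were called and 5391 had an unadjusted p under 0.05. Klk1b5 differed by -0.02 (95% interval -0.74 to 0.69) and Klk1b26 by -0.97 (-2.84 to 0.90), all from signals below background. With hormones 0 of 9 were called, where 0.681% of all probes were, and 3 members had an unadjusted p under 0.05. These were Klk1b24 at -0.44 (-0.77 to -0.11, limma adjusted p = 0.329), Klk1b11 at -0.41 and Klk1b21 at 0.30. Klk1b5 differed by -0.25 (-0.53 to 0.03), Klk1b26 by -0.32 (-0.72 to 0.08) and Klk1 by -0.21 (-0.65 to 0.24).

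Whether siPINC altered the response to hormones was tested as the siPINC difference with hormones minus that without. Of the member probes 0 of 9 were called and 0 had an unadjusted p under 0.05, against 0.503% of all probes called. The term was -0.22 for Klk1b5 (95% interval -0.81 to 0.36) and 0.65 for Klk1b26 (-0.68 to 1.98). The second interval still holds a change of 1.98 on the log2 scale.

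Cells given siPINC1/6 are described without a test. With hormones their arrays lay below every siNegative +LH array for Klk1, Klk1b5, Klk1b11, Klk1b22, Klk1b24 and both Klk1b26 probes. The share of all probes separated in this way was not computed, so these probes are not set against a background. The log2 differences from siNegative +LH were -2.07 for Klk1b26 (4.21-fold lower), -1.94 for Klk1b5 (3.85-fold), -1.68 for Klk1, -1.43 for Klk1b22 and -1.40 for Klk1b24. The second Klk1b26 probe differed by -1.79 and Klk1b11 by -1.95, both below background in siPINC1/6 +LH. Klk1b21 differed by 0.08 and Klk1b27 by 0.61. Set against siPINC +LH, on the same slide, the differences were -1.75 for Klk1b26, -1.70 for Klk1b5, -1.56 for Klk1b22, -1.47 for Klk1 and -0.96 for Klk1b24.

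Without hormones the siPINC1/6 differences were 0.19 for Klk1b5 and -0.40 for Klk1b26, from arrays below background. That of Klk1b22 was -1.11, set by 1 array at 1.88. Between siPINC1/6 cells with and without hormones, Klk1b5 differed by at least 5.85-fold, Klk1 by at least 2.43-fold and Klk1b26 by at least 2.13-fold. Both the siPINC1/6 +LH arrays, given siRNAs to these mPINC forms, and the LeGO-1/6 arrays, given an excess of them, thus read lower than their own controls for these genes. These 2 contrasts share no array, but the siPINC1/6 contrast chose the genes, so the common direction is a description and was not tested. The mPINC probe also showed no knockdown there, averaging 5.06 in siPINC1/6 +LH against 4.87 in siNegative +LH.

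Of the other 6 Klk1b genes all but Klk1b1, which was below background in every group, were called lower in LeGO-1/6. Against LeGO-GFP 5 of 6 probes were lower (median log2 fold change -3.66), where 15.8% of all probes were called lower. In LeGO-DCR against LeGO-GFP 0 were called, where 0.0736% of all probes were. In LeGO-1/6 against LeGO-DCR 5 were lower, where 15.1% of all probes were called lower. Klk1b4 differed by -4.69 ± 0.24 (limma adjusted p = 6.17e-06; at least 11.2-fold lower), Klk1b8 by -4.62 ± 0.23 (at least 9.96-fold lower) and Klk1b3 by -4.48 ± 0.41. Klk1b3 was well above background on 1 of 3 LeGO-1/6 arrays. With hormones 3 of 6 were higher in siPINC and 5 of 6 in siNegative cells, where 13.5% of all probes were called higher in each. Klk1b3 rose by 4.42 ± 0.28 in siPINC, at least 11.2-fold because it was below background without hormones, and by 3.67 ± 0.28 in siNegative. Klk1b4, below background without hormones in both, rose by 4.16 ± 0.29 (at least 4.86-fold) and 3.16 ± 0.29 (at least 5.45-fold). Klk1b8 rose by 1.12 ± 0.31 and 1.43 ± 0.31. Klk1b16 was called in siNegative with both groups below background, so no fold is given. Klk1b1 did not exceed a group mean of 1.92 anywhere, so its differences near 0 give no measure of a change. Neither knockdown comparison of siPINC with siNegative called any of the 6, where 0% of all probes were called without hormones and 0.681% with them.

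**Figure D3:**
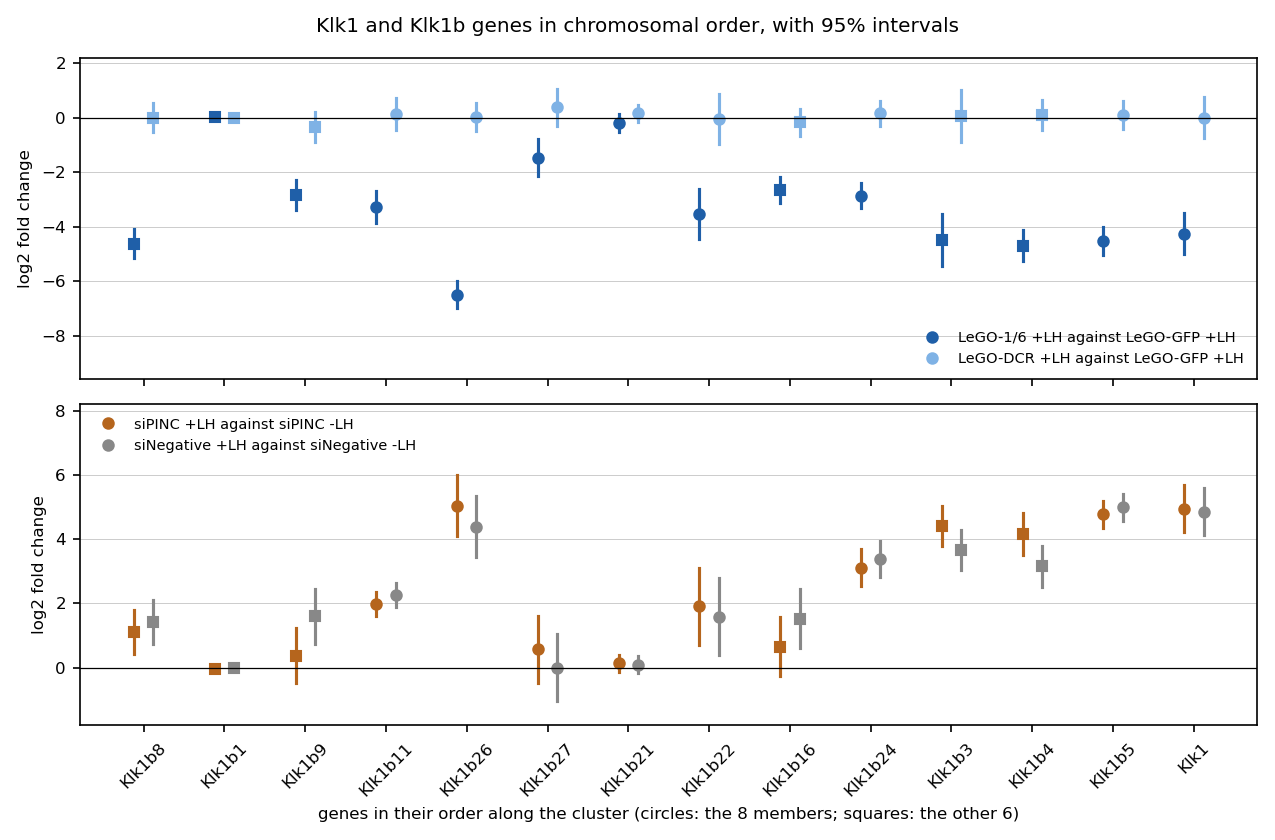
Log2 fold change with 95% interval (vertical axis) of the 14 Klk1 and Klk1b genes in their order along chromosome 7, for LeGO-1/6 and LeGO-DCR against LeGO-GFP (top) and for hormones in siPINC and siNegative cells (bottom); circles are the 8 members and squares the other 6. In the top panel for LeGO-1/6, Klk1b21 (-0.18) lies beside Klk1b22 (-3.53), whereas Klk1b1 was below background in every group and its point near 0 gives no measure of a change.

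The more distant relatives of the family gave other values. Of 13 kallikrein-related peptidase probes, 1 was higher and 0 lower in LeGO-1/6 against LeGO-GFP, namely Klk8 at 0.95 ± 0.11 (limma adjusted p = 0.000327), and 0 were called in LeGO-DCR. Over all probes 30.3% were called in the first comparison and 0.0736% in the second. With hormones Klk6 was lower in siPINC cells (by at least 2.86-fold) and in siNegative cells (by at least 2.71-fold), as was Klk5 (at least 1.49-fold and 2.32-fold). Klk11 rose by 1.09 ± 0.32 in siPINC cells. With hormones it was the 1 probe of the list that was higher in siPINC than in siNegative, by 1.30 ± 0.19 (limma adjusted p = 0.0412), where 0.681% of all probes were called.

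Of 14 probes for 11 genes that make, sense or degrade kinins, 5 were higher and 4 lower in LeGO-1/6 against LeGO-GFP, and the list's median was -0.01. Over all probes 30.3% were called in this comparison, 15.8% lower. Kng2, a kininogen from which kinins are cut, was higher by at least 2.80-fold, and Bdkrb2, the constitutive bradykinin receptor, by at least 1.31-fold. Mme, neprilysin, a membrane peptidase that destroys kinins, was lower by 4.31 ± 0.10 on the log2 scale (limma adjusted p = 2.14e-07). Its other probe, which has the higher mean signal, was lower by 4.03. Against LeGO-DCR the kininogen Kng1 was higher by 2.15 ± 0.13 (adjusted p = 1.47e-05). No probe of the list was called in LeGO-DCR against LeGO-GFP, where 2 had an unadjusted p under 0.05 and 0.0736% of all probes were called.

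With hormones 4 of the 14 probes were higher and 3 lower in siPINC cells, and 4 higher and 5 lower in siNegative cells. Over all probes 28% were called in siPINC and 27.1% in siNegative cells. Kng1 averaged 9.06 in siNegative -LH and 8.78 in siPINC -LH, and 4.31 and 4.26 in the same cells with hormones. Its log2 fold change was -4.52 ± 0.22 in siPINC (limma adjusted p = 8.92e-08) and -4.75 ± 0.22 in siNegative. Kng2 was lower with hormones by at least 1.55-fold in siPINC, and Cpm, a carboxypeptidase that trims kinins, fell by 2.05 ± 0.19. Mme was called higher with both probes, by 0.70 and 0.63 in siPINC. The Kng1 means in the remaining groups given hormones were 9.35 in LeGO-1/6, 7.33 in LeGO-GFP, 7.21 in LeGO-DCR and 6.09 in siPINC1/6 +LH. Between siPINC and siNegative with hormones the 1 called probe of the list was Xpnpep2, an aminopeptidase, higher by at least 2.05-fold. Over all probes 0.681% were called there.

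**Figure D4:**
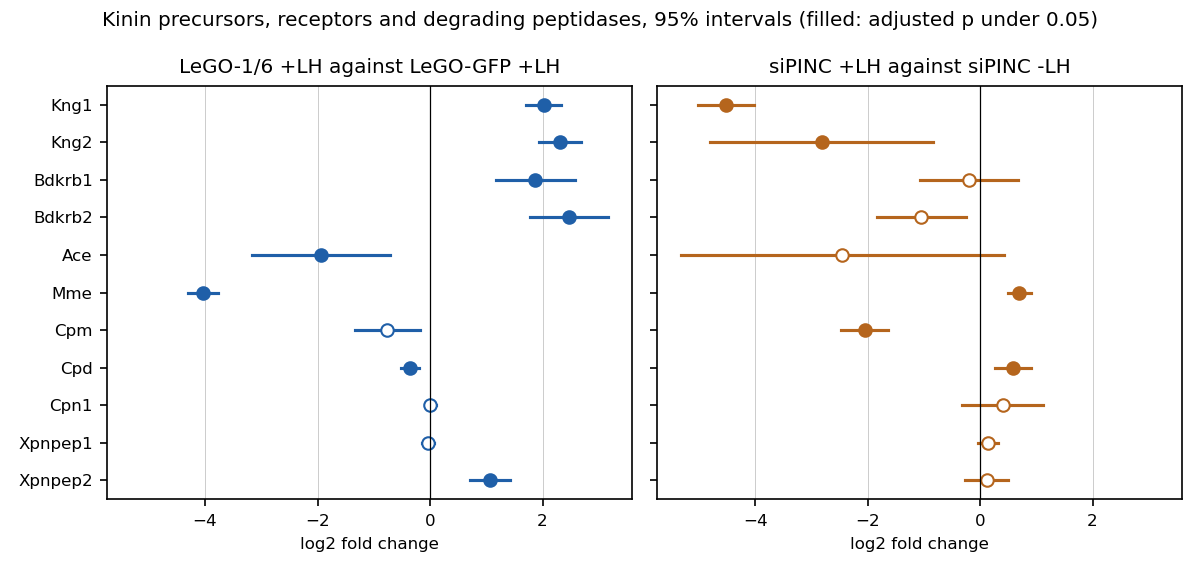
Log2 fold change with 95% interval (horizontal axis) of the 11 genes that make, sense or degrade kinins, 1 probe per gene, for LeGO-1/6 against LeGO-GFP (left) and hormones in siPINC cells (right), filled where the adjusted p was under 0.05. Kng1 and Kng2 lie right of 0 on the left (2.02 and 2.31) and left of 0 on the right (-4.52 and -2.81), and Mme does the reverse (-4.03 and 0.70).

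The inhibitors and other substrates were read from the same fits. Of 9 probes for 7 serine protease inhibitors, 6 were lower and 1 higher in LeGO-1/6 against LeGO-GFP, where 30.3% of all probes were called and 15.8% were called lower. Spink5, an inhibitor of epidermal kallikreins, differed by -2.56 ± 0.05 (limma adjusted p = 1.51e-07), Spink8 by -2.91 ± 0.39 and Spint1 by -1.11 ± 0.07. With hormones in siPINC cells 5 of the 9 were higher and 0 lower, with Spink5 at 1.41 ± 0.10 and Spint1 at 0.80 ± 0.10. Over all probes 28% were called there, 13.5% higher. Among Egf, Ren1 and Agt, whose products kallikreins bind or cleave, Agt was lower in LeGO-1/6 (-0.66 ± 0.14) and Egf was higher with hormones in siNegative (0.61 ± 0.15).

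The 9 group means of 18134 named probes well above background in at least 1 group were compared with those of Klk1b5. The 8 members were left out of the ranking, although Klk1 (Pearson r = 0.998) ran closer to Klk1b5 than any gene ranked. Most alike among the rest were Sppl2a (Pearson r = 0.994), B4galnt1 (0.994), Tmem184a (0.994), Plekhh1 (0.994) and Gdf5 (0.992). Most like Klk1b26 were Gab1 (0.989), Ddx5 (0.988), Klk1b3 (0.988), Tm2d2 (0.986) and Nipal2 (0.985). These correlations describe 9 means from shared arrays. Gdf5, a growth factor of the BMP family, had the widest range of the first 5, from 4.86 in siNegative -LH to 8.53 in LeGO-DCR, with 7.70 in siPINC1/6 +LH and 5.46 in LeGO-1/6. Klk1b3 was the 1 Klk1b gene among these, from a ranking that left out the 8 members.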

How the data were processed

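The authors labelled 50 ng of total RNA with Cy3 and hybridised each sample to a mouse 8x60K Agilent array. The deposited scanner files hold, per spot, an intensity that Feature Extraction had already background-corrected, with flags for outliers and for signal well above background. The authors also deposited a log2 table of the same arrays, whose scale follows the median signal minus background (Spearman 1) and whose centring is not stated; its column medians were 5.23 to 5.248. It was used as an alternative.

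Here log2 intensities of 59305 non-control spots were quantile-normalized over the 24 arrays, outlier spots were removed and spots averaged per probe. limma 3.58.1 (R 4.3.3) was fitted separately to the siRNA arrays (those without hormones, those with hormones, or all 15 for the effect of hormones and the interaction) and to the 9 LeGO arrays. P-values were adjusted by Benjamini-Hochberg over all 55681 probes, with a threshold of 0.05. Fold changes against a group below background use, per array, the brighter of that probe's value and the dimmest value flagged as well above background there. Probes were named by RefSeq accession (26582 matched). A gene with several probes is represented by the one with the highest mean signal, except that genes named from the other lists carry their probe of largest change. From the other gene lists up to 3 called genes per comparison are named, by size of change. As similar patterns the 5 highest correlations among genes that are not members are given. The members and lists were chosen with earlier results of these data known. From the lists, 1 gene is not reported here. The steps were tested on simulated data. Replicates are biological duplicates or triplicates in the methods. Alternatives covered scaling, background correction, probe filter, prior, slide, replicate block, the methods' t-test and leaving out each array. The precision is limited by the number of arrays.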

Additional observations from a re-analysis of the deposited data

How the results depend on the processing

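The count of member probes called in each comparison stayed within 1.5 times its reported value in every alternative run. Leaving out 1 array at a time gave 8 to 8 of 9 probes in LeGO-1/6 against LeGO-GFP, 8 to 9 against LeGO-DCR, 6 to 7 for hormones in siPINC and 6 to 7 in siNegative cells, and 0 to 0 in the other 4 comparisons. Of 1480 values of single member probes under the alternatives, 1455 stayed on their side of the threshold, 7 lost and 18 gained a call. None of the 629 that belong to called differences changed sign, whereas 61 of the 851 that belong to differences not called did. Klk1b22, Klk1b21 and Klk1b27 accounted for all but 1 of these changes, and the exception was Klk1b26 with hormones in siNegative cells under the methods' t-test (adjusted p = 0.0503). The cause was not tested. Normexp correction moved all 29 called values by over 1.5 times and the values of the deposited log2 table moved 28 of 29 likewise, all towards 0. Same-numbered arrays did not deviate together (correlations of deviations from -0.139 to 0.135), so the numbers were not taken as pairs; with a replicate block the counts were 8, 0, 9, 7, 6, 0, 0 and 0, in the order LeGO-1/6 and LeGO-DCR against LeGO-GFP, LeGO-1/6 against LeGO-DCR, hormones in siPINC and siNegative, siPINC without and with hormones, and the interaction. The fit within slide 1 and the bounds without LeGO-1/6 replicate 1 were added after seeing the data. Klk1b27 throughout, and most members without hormones, lay below background, where differences are limited by the signal.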
